A study of Mus musculus with 6 samples.

Results

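The mouse kidney line mK4 was described by the balance of its 2 histone ChIP libraries, the one labelled H3K4 set over the one labelled H3K27, gene by gene. Every gene with at least 20 reads in the 2 libraries together was included, and each library was divided by its own sum. This kept 16378 of the 21937 genes of the series and left 5559 under the minimum. Because both libraries come from chromatin of the same line, a gained or lost stretch of a chromosome enters both and cancels in the balance. The groups used were mK4 H3K4, mK4 H3K27, mK4 input (chromatin DNA with no antibody) and, for comparison, the same 3 libraries of mK3. Both lines are labelled as immortalized cell lines of the metanephros, the embryonic kidney, at E11.5 on the CD1 strain, with no treatment given, so each line stands for itself and not for a replicated cell type. The purpose given for the series is the part of histone methylation in what nephron progenitors become. Each group has 1 library, so no difference has a replicate check, no p-value is given, and intervals are exact 95% Clopper-Pearson intervals that cover counting error only.

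Methylation of lysine 4 on histone H3 is laid down by the Set1 and MLL complexes and, as the trimethyl mark, sits at the promoters of active and CpG-rich genes. Trimethylation of lysine 27 is laid down by Polycomb repressive complex 2 and covers the genes of lineages that a cell does not use. Developmental regulators in progenitors are known to carry both marks at once, and they can lose one or the other as cells choose a fate. The labels state no degree of methylation for either antibody, and the counts come with an exon length by which the authors divided them. They are read here as counts over exons, in which signal upstream of the first exon would be missing.

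One label needs naming before the values. The libraries called H3K4 carry the catalogue number ab8898, under which Abcam sells an antibody against trimethylated lysine 9 of histone H3, a mark of silent heterochromatin that is known to cover zinc finger gene clusters. The H3K27 libraries carry number 39535 of Active Motif. The 336 measured Zfp genes, most of which encode zinc finger proteins, had a median H3K4 level over input of -0.01 on the log2 scale and a median balance of 0.14. The 41 measured cytosolic ribosomal protein genes had 0.42 and 1.01, and the 20 measured housekeeping genes 0.31 and 0.65. A list of germline genes and genes known to be silenced by trimethylated lysine 9 had 15 measured members, a median H3K4 level over input of -0.52 and 0 members at least 2-fold over input. The name H3K4 is kept below as the label gives it, and which residue the antibody bound was not tested.

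The summed exon counts were 714011 reads in the mK4 H3K4 library, 481235 in the mK4 H3K27 library and 386695 in the mK4 input. The mK3 libraries held 595305, 593079 and 311409 reads in the same order. Over the 16378 genes the median balance, the log2 ratio of scaled reads plus 5, was 0.06. The central 9 in 10 genes lay between -1.35 and 1.39, and the extremes were -2.93 and 3.01. At the 2-fold mark 2006 genes (12.2%) were H3K4-rich and 2083 genes (12.7%) H3K27-rich. Those shares are the background for every count of rich genes below, but they were not even over genes. Of the 3278 genes with the shortest exons 737 were H3K4-rich, as were 879 of the 3276 with the most input reads per exon kilobase. Families were not set against genes of like length or input. With the near bound of the counting interval also past 2-fold, 464 genes (2.83%) stayed H3K4-rich and 449 (2.74%) H3K27-rich. The 219 genes with exactly 20 reads had a median balance of -0.19, and the 230 genes just outside, with 19 reads, had -0.27.

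**Figure D1:**
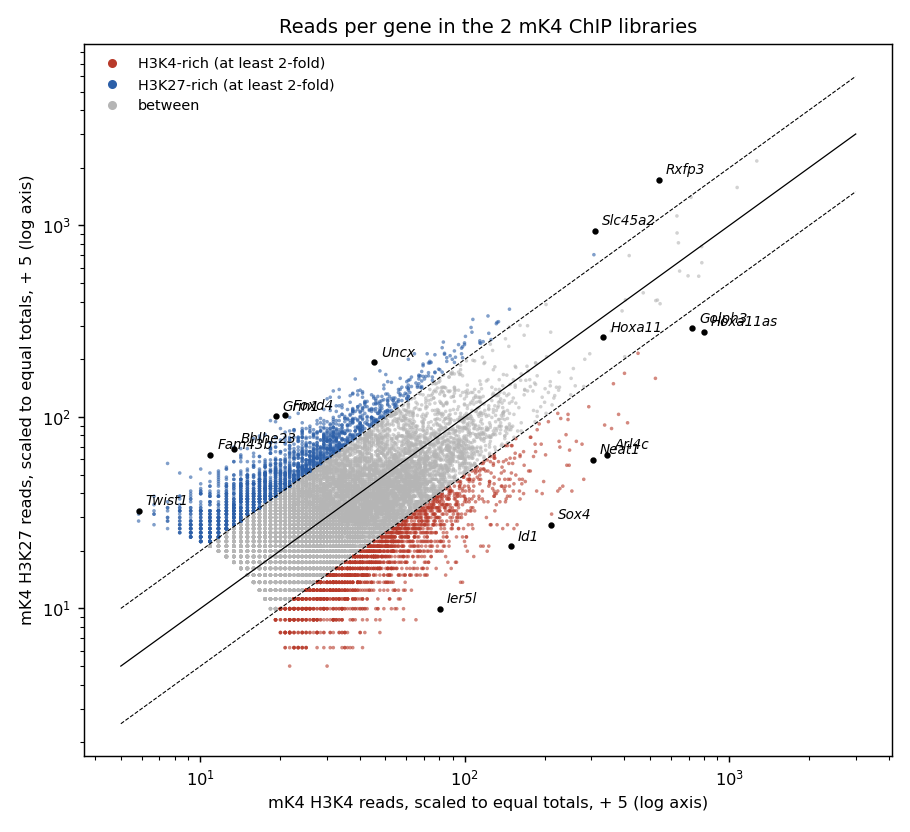
Reads per gene in mK4, H3K4 on the horizontal and H3K27 on the vertical axis, scaled to equal totals with 5 added, both axes logarithmic; each point is 1 of 16378 genes, the solid line marks equal shares and the dashed lines 2-fold. Sox4 and Id1 lie far below the diagonal, Grin1 and Foxd4 far above it, and Rxfp3 and Golph3 are deep genes of the chromosome 15 run that fall on opposite sides.

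Promoter sequences are given for examples from both sides. Printed are the 250 bases upstream of 2 genes of the H3K4-rich end, Snhg8 and Ier5l, of 2 developmental regulators on the H3K27-rich side, Neurog3 and Hoxd13, and of the keratin gene Krt5, also H3K27-rich. They are RefSeq sequences of build GRCm38.p6 in lower case, read 5′ to 3′ toward the gene, with every CpG in capitals. The positions are chr3:123508337-123508586 on the minus strand for Snhg8, chr2:30474200-30474449 on the minus strand for Ier5l, chr10:62132840-62133089 on the plus strand for Neurog3, chr2:74667975-74668224 on the plus strand for Hoxd13 and chr15:101712906-101713155 on the minus strand for Krt5.
Snhg8: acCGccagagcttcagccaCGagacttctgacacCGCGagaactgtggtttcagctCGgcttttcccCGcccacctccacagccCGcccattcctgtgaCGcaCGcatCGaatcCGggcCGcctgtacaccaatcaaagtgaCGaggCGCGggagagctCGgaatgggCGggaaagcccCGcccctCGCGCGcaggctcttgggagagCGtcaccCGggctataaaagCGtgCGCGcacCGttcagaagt
Ier5l: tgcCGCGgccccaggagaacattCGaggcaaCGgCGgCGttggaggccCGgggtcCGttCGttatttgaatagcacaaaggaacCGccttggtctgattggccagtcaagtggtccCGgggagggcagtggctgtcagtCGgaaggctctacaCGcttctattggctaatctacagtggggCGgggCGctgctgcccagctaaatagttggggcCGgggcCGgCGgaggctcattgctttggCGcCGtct
Neurog3: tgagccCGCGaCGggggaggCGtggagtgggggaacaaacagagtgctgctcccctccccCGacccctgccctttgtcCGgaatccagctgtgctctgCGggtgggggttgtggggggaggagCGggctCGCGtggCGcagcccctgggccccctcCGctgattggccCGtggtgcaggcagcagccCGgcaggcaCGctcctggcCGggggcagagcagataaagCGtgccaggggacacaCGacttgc
Hoxd13: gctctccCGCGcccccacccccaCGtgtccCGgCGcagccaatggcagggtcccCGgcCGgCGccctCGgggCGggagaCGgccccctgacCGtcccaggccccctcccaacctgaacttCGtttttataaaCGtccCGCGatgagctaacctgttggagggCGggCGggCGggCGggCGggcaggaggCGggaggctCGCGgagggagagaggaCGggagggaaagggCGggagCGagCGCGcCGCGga
Krt5: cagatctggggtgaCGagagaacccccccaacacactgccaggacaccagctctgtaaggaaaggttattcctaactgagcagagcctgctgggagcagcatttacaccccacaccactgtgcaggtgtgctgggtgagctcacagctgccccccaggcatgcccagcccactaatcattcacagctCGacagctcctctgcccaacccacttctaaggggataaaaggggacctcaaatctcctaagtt
These windows held 27 CpG in Snhg8, 20 in Ier5l, 18 in Neurog3, 31 in Hoxd13 and 2 in Krt5. CpG-rich windows thus occurred on both sides of the balance, and the CpG-poor one of Krt5 on the H3K27 side.

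The 25 genes named at the H3K4-rich end were of many kinds, and those whose roles are well known are described here. Sox4, a transcription factor of progenitor cells, had 247 H3K4 reads against 18 H3K27 reads, with 37 in the input. Its share in the H3K4 library was 9.25-fold its share in the H3K27 library (95% counting interval 5.73 to 15.9). Id1, which blocks bHLH factors downstream of BMP signals, had 172 reads against 13 (8.92-fold, 5.08 to 17.1). Both genes were therefore among the widest splits in the line. Smad7, the feedback inhibitor of TGF-beta signalling, had 274 reads against 31 (5.96-fold, 4.10 to 8.94), and Ier5l, a relative of the immediate early response gene Ier5, had 90 against 4. Cited2, a co-regulator of CBP and p300, had 182 against 18, and Foxc1, a forkhead factor of mesoderm, had 267 against 30. All of these lay over their own input in the H3K4 library and under it in the H3K27 library.

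Long noncoding RNA genes were also at this end. Gas5 had 330 H3K4 reads against 34 H3K27 reads (6.54-fold, 4.59 to 9.61), Snhg8 had 248 against 21 (7.96-fold, 5.09 to 13.1) and Neat1, the scaffold RNA of paraspeckles, had 357 against 44 (5.47-fold, 3.99 to 7.66). Malat1, the neighbour of Neat1, had 621 reads against 124. Gas5 and Snhg8 host small nucleolar RNAs in their introns. The small nucleolar RNA genes had 7 measured members of 104, of which 6 were H3K4-rich, at a median balance of 1.80. This median depended on the settings, at 0.17 with no minimum, 2.98 with an added constant of 1 and 1.25 with 10. Snora24 overlaps Snhg8, so reads of the pair may not be separate, and the strand used in counting is not given. Ndufa2, a subunit of respiratory complex I, had 30 H3K4 reads and no H3K27 read, which puts its H3K4 share at least 6.74-fold higher against a limit of 3 H3K27 reads.

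Of the 25 genes named at this end, 18 lay at least 2-fold over mK4 input in the H3K4 library and 0 in the H3K27 library. The 25 were chosen on the ratio of these same reads, so these counts are a description. No share over all measured genes is given beside them. The shares of the 25 genes leaned to H3K4 by 5.47-fold or more. In mK3, which played no part in the choice, 25 of 25 had the same sign and 20 were past 2-fold the same way. Hnrnpa1, a splicing factor, was an exception: 43 reads against 1 in mK4, but 18 against 16 in mK3.

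Genes of the basic machinery of the cell lay on the H3K4 side as groups. Mitochondrial ribosomal protein genes had a median balance of 1.05, with 27 of 51 measured members H3K4-rich and 0 H3K27-rich. Mrps34 had 43 H3K4 reads against 3 H3K27 reads, and Mrpl18 had 50 against 5. Cytosolic ribosomal protein genes had 21 of 41 H3K4-rich and 0 H3K27-rich, with Fau at 62 against 5 and Rps27 at 80 against 8. Only 41 of the 85 such genes in the files had enough reads, so the count does not cover the family. Oxidative phosphorylation genes had a median of 0.95 and 27 of 56 H3K4-rich, and proteasome genes 0.92 and 18 of 40. Splicing factor genes had a median of 0.90, with 19 of 46 H3K4-rich and 1 H3K27-rich, and Srsf2 at 144 against 18. Psmb8 was the 1 H3K27-rich proteasome gene, at 5 reads against 20. It encodes an immunoproteasome subunit, used mainly in immune cells, whereas Psmc3 and Psmd2, subunits found in proteasomes of all cells, had 69 against 8 and 61 against 8.

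Genes of the Polycomb and H3K4 methylation machinery leaned to the H3K4 side. Of 34 measured Polycomb and H3K4 methylation genes, 8 were H3K4-rich and 0 H3K27-rich, and the median balance was 0.37. Set against input, their H3K4 reads had a log2 median of 0.07 and their H3K27 reads one of -0.43. In the H3K4 library 0 of the 34 reached 2-fold above input, and in the H3K27 library 1 did, with no share over all measured genes given beside these counts. The lean to H3K4 thus went with H3K27 reads below input and H3K4 reads near input. Men1, the menin subunit of MLL complexes, had 106 H3K4 reads against 20 H3K27 reads, and Ash2l, a core subunit shared by those complexes, had 50 against 9. Suz12 and Eed, subunits of Polycomb repressive complex 2, had 71 against 21 and 61 against 18. Ezh2, the methyltransferase of that complex, was nearer the middle at 31 against 18.

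The 25 genes named at the H3K27-rich end included developmental transcription factors, neuronal genes and genes of other kinds. Neurog3, which starts the endocrine lineage of the pancreas, had 2 H3K4 reads against 24 H3K27 reads. The H3K27 share was 17.8-fold the H3K4 share (4.42 to 155). Nkx2-5, a cardiac factor, had 5 against 35 (10.4-fold, 4.05 to 34.0), and Pou3f2, a neural POU factor, had 1 against 19. Evx1 and Evx2, homeobox genes beside the HoxA and HoxD clusters, had 10 against 52 and 1 against 21. These counts are small in the H3K4 library, and the upper bounds are accordingly wide. Bhlhe23, a neural bHLH factor, had 10 against 51 (7.57-fold, 3.80 to 16.7), Foxd4 had 19 against 78 (6.09-fold, 3.65 to 10.7) and Tcfap2c, an AP-2 factor of trophoblast and germ cells, had 14 against 60 (6.36-fold, 3.51 to 12.3). Pitx1, a hindlimb factor, had 7 against 37.

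Genes that are not transcription factors were here too. Grin1, the obligatory subunit of NMDA receptors, had 17 H3K4 reads against 77 H3K27 reads (6.72-fold, 3.94 to 12.1). Penk, the enkephalin precursor, had 2 against 21, and Ecel1, a neuronal endopeptidase, had 4 against 37. Nanos2, an RNA-binding protein of male germ cells, had 2 against 27 in mK4, and 10 against 18 in mK3. Csf2rb, a cytokine receptor chain of blood cells, had 17 against 72. Foxl2os had 16 against 73, and its antisense partner Foxl2 14 against 58, values that cannot be told apart without strand. Of the 25 named genes, 18 lay at least 2-fold over input in the H3K27 library and 0 in the H3K4 library. These genes too were chosen on the ratio of the same reads, and no share over all measured genes is given beside the counts. In mK3, 23 of the 25 had the same sign and 18 were past 2-fold the same way. Nsg1 was 1 of the 2 that changed sign, with 2 against 21 reads in mK4 and 12 against 7 in mK3, and Twist1, taken up below, was the other.

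Whole families of lineage regulators were on the H3K27 side. Of 36 measured transcription factors that direct lineages other than kidney, 24 were H3K27-rich and 0 H3K4-rich, with a median balance of -1.37. Sox1, a neural factor with many reads, had 34 H3K4 reads against 108 H3K27 reads, and 11 in the input. Nkx2-1 of lung and thyroid had 9 against 40, and Foxa2 of endoderm 9 against 35. Neurogenic bHLH genes had 12 of 18 H3K27-rich and 0 H3K4-rich, Nkx genes 5 of 10 and 0, Dlx and Msx genes 5 of 9 and 0, and LIM homeobox genes 6 of 12 and 0. Potassium channel genes had 28 of 86 H3K27-rich and 0 H3K4-rich at a median of -0.74, and sodium and calcium channel genes 9 of 36 and 0.

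Tissue-restricted structural and receptor genes leaned the same way. Keratin genes, which encode the intermediate filaments of epithelia, had a median balance of -0.92, with 18 of 40 H3K27-rich and 0 H3K4-rich. Krt5, the basal keratin whose promoter is printed above, had 7 H3K4 reads against 25 H3K27 reads (5.30-fold to H3K27, 2.23 to 14.5), and Krt2 had 11 against 36. Blood and immune genes had 7 of 11 H3K27-rich and 0 H3K4-rich, Ptprc (CD45) among them at 58 against 94. Of 1126 olfactory receptor genes, which are short genes, only 80 had enough reads, and 23 of those were H3K27-rich and 0 H3K4-rich. The list of germline genes and genes silenced by lysine 9 trimethylation had 10 of 15 measured H3K27-rich and 0 H3K4-rich at a median of -1.06, Asz1 at 8 against 38 and Ddx4 at 31 against 70. In mK3 their median was -0.60 and 1 of the 15 was H3K27-rich.

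**Figure D2:**
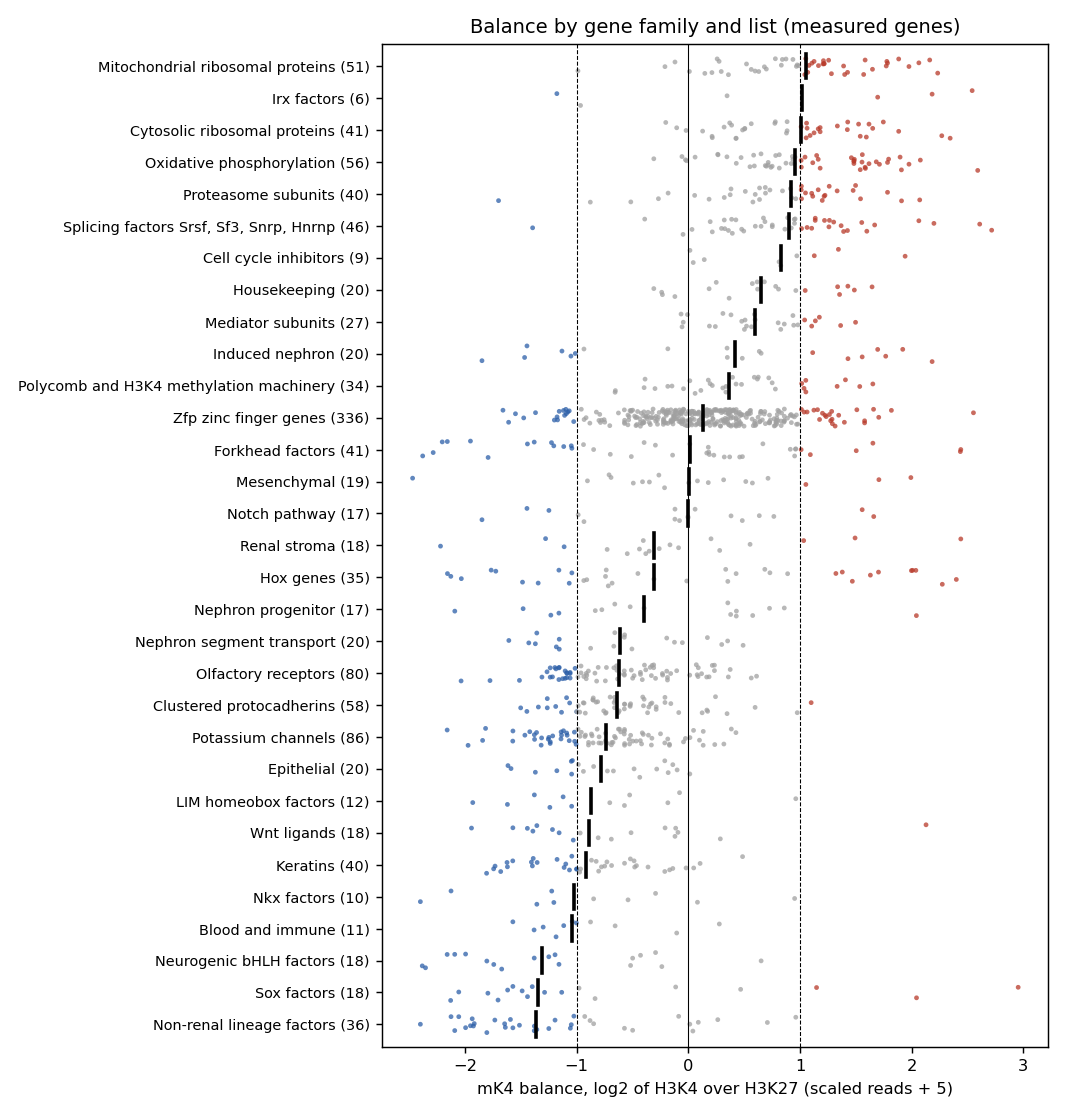
Balance of measured genes by family and list in mK4, as log2 of H3K4 over H3K27 scaled reads plus 5, with the number measured in brackets; points are genes, red at least 2-fold H3K4-rich and blue at least 2-fold H3K27-rich, and black bars are medians. Machinery of the cell heads the plot with mitochondrial ribosomal proteins at 1.05, and lineage factors of other tissues close it at -1.37; Sox, Hox and forkhead genes spread over both sides.

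In all, 77 families and lists with at least 5 measured genes were described, of which 11 had a median at or above 0.5 and 26 at or below -0.5. A family median can hide members at both ends, and 27 of the 59 families had them. Sox genes were such a family. Sox4 and Sox11 were H3K4-rich, Sox11 at 422 reads against 66 (4.31-fold, 3.32 to 5.67), while 11 of 18 measured Sox genes were H3K27-rich, such as the neural Sox1 and the endothelial Sox18 at 9 against 31. Forkhead genes had 6 H3K4-rich and 13 H3K27-rich members of 41. Foxd1, the factor that defines renal stroma, had 131 against 13 (6.79-fold, 3.84 to 13.1) and stood with Foxc1, whereas Foxb2 had 6 against 32. Among Wnt ligands Wnt5a alone was H3K4-rich, at 72 against 8 (6.07-fold, 2.92 to 14.6), and 8 of the 18 measured were H3K27-rich. T-box genes had Tbx18, a gene of ureteral and stromal mesenchyme, at 111 against 24 and 6 of 15 members H3K27-rich, such as Tbx4 at 27 against 63.

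The Hox genes, which pattern the body axis, divided by cluster. Over the family 10 of 35 measured genes were H3K4-rich and 10 H3K27-rich, with a median of -0.31. With at least 50 reads required, which leaves 18 Hox genes, the median turned to 1.10, so the sign for the family as a whole depends on that minimum. HoxB was the cluster furthest to H3K4, with a median balance of 1.39 and 6 of 10 H3K4-rich, and HoxD the furthest to H3K27, with -1.60 and 4 of 6 H3K27-rich. HoxA had a median of 0.71 and HoxC of -1.04. Neighbours along a cluster tended to lie together. From Hoxa6 to Hoxa10 all 4 measured genes in a row were H3K4-rich, Hoxa9 at 122 H3K4 reads against 17 H3K27 reads (4.84-fold, 2.90 to 8.57) and Hoxa10 at 345 against 87 (2.67-fold, 2.11 to 3.42). Hoxa13, at the cluster's end, was H3K27-rich with 8 against 28. Hoxa11, a kidney regulator, lay between them at 392 against 206 (1.28-fold, 1.08 to 1.53). Its antisense gene Hoxa11as had 948 against 220, and the pair shares sequence and cannot be told apart without strand. Input reads were also many there, 245 at Hoxa11 and 325 at Hoxa11as, against a median of 17 for all measured genes. Relative to its own input, Hoxa11 had log2 values of -0.20 for H3K4 and -0.55 for H3K27, so both marks lay below input.

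In HoxB, Hoxb8 had 152 H3K4 reads against 18 H3K27 reads (5.69-fold, 3.48 to 9.86), Hoxb2 had 110 against 20 and Hoxb9 109 against 27. Hoxb1 and Hoxb13, at the 2 ends of the cluster, were nearer to even at 19 against 19 and 19 against 23. In HoxD the run from Evx2 through Hoxd13, Hoxd12, Hoxd10 and Hoxd9 was H3K27-rich without a break among measured genes. Hoxd13, whose CpG-rich promoter is printed above, had 11 against 47 (6.34-fold to H3K27, 3.24 to 13.6), with 8 reads in the input. HoxC was the cluster whose balance differed most between the lines. Its median was -1.04 in mK4 and 0.92 in mK3. Hoxc8 had 10 against 43 reads in mK4 and 83 against 38 in mK3, and Hoxc10 had 19 against 24 in mK4 and 81 against 19 in mK3. The input of Hoxc8 was 10 reads in mK4 and 49 in mK3. Its mK3 H3K4 share was thus not above its mK3 input share, and its mK3 H3K27 share was below it.

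Iroquois genes, 2 clusters of homeobox genes that act along the nephron, also divided. Irx5 had 141 H3K4 reads against 13 H3K27 reads (7.31-fold, 4.14 to 14.1), Irx1 had 75 against 8 (6.32-fold, 3.05 to 15.2) and Irx2 71 against 12 (3.99-fold, 2.15 to 8.08). Irx4, the cardiac member in the cluster of Irx1 and Irx2, was H3K27-rich with 17 against 31, and its input was 1 read. Irx3 and Irx6 were between the 2-fold marks at 45 against 23 and 10 against 17. In mK3, Irx1 had 8 reads in the H3K4 library and 9 in the H3K27 library.

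**Figure D3:**
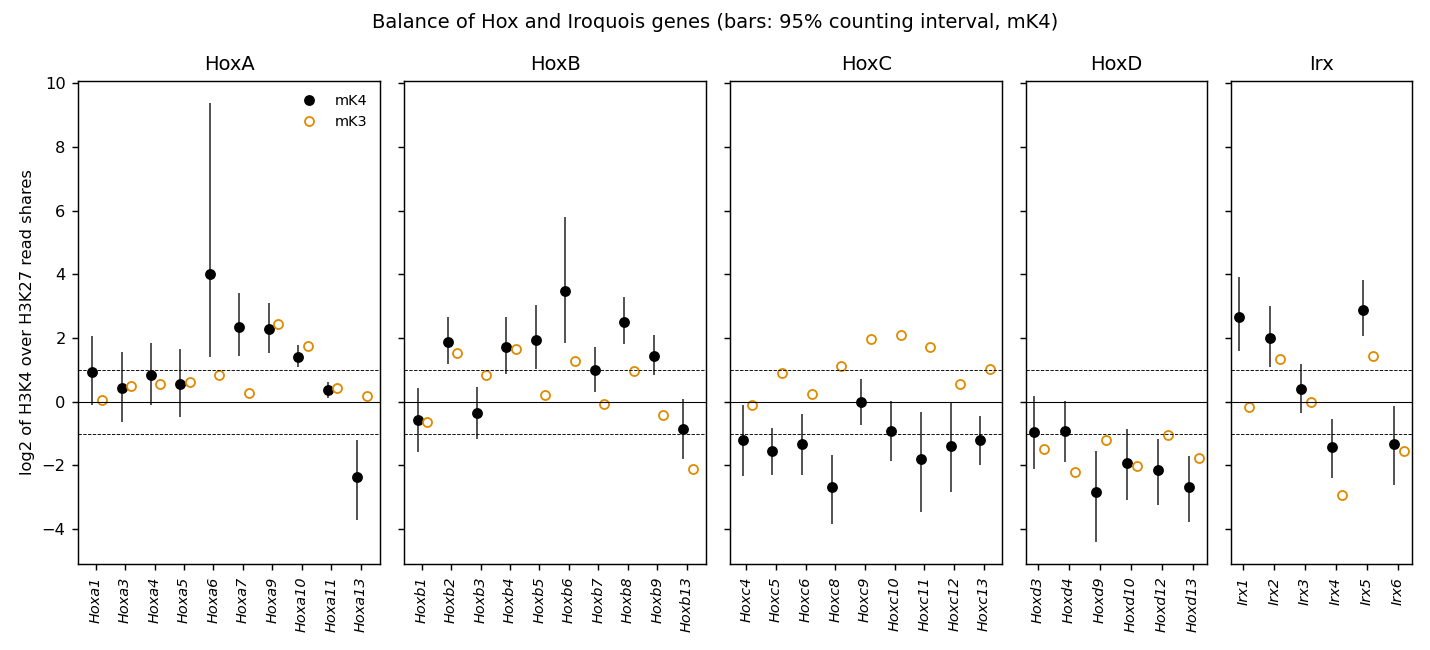
Balance of each measured Hox and Irx gene, as log2 of the H3K4 read share over the H3K27 read share without an added constant; filled points are mK4 with 95% counting intervals, open points are mK3, and genes are ordered by paralogue number. HoxB lies mostly above 0 and HoxD below it in mK4, and the HoxC genes of mK4 lie below those of mK3.

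Genes of the kidney itself did not gather at 1 end. The nephron progenitor list had a median balance of -0.40, with 1 H3K4-rich and 4 H3K27-rich of 17 measured. With at least 50 reads required, 11 members remained and the median turned to 0.35. Six2, the factor that keeps nephron progenitors, had 13 H3K4 reads against 26 H3K27 reads (2.97-fold to H3K27, 1.47 to 6.29). Uncx, a homeobox gene of the metanephric mesenchyme, had 48 against 151 (4.67-fold to H3K27, 3.35 to 6.60). Eya1 had 50 against 25, Sall1 46 against 22, Osr1 21 against 6, Pax2 26 against 9, Wt1 23 against 24 and Gdnf, the ligand for the ureteric bud, 56 against 24, and none of these was past 2-fold on the log2 scale used. The intervals of Eya1, Sall1, Osr1, Pax2 and Wt1 all span equal shares.

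Genes that switch on as the mesenchyme turns into epithelium had members at both ends. Of 20 measured, 7 were H3K4-rich and 6 H3K27-rich. Lef1, a transcriptional partner of beta-catenin, had 186 H3K4 reads against 34 H3K27 reads (3.69-fold, 2.55 to 5.48), Lfng, which modifies Notch, 173 against 37 and Emx2 112 against 17. At the other end Heyl, a Notch target, had 20 against 59 (4.38-fold to H3K27, 2.60 to 7.67) and Fgf8 8 against 22. Pax8 had 64 against 26 (1.66-fold to H3K4, 1.04 to 2.73) and Lhx1 45 against 35, both between. Wnt4 had too few reads to be measured, as had Cited1 of the progenitor list. Chromatin counts do not measure transcripts, so the labelled origin of the line was not checked against marker expression. Notch genes showed the same spread, with Hes1 at 116 against 22, the ligand gene Dll1 at 30 against 62 and Hey1 at 34 against 60.

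Genes of finished nephron segments leaned to H3K27. Of 20 transport genes 7 were H3K27-rich and 0 H3K4-rich, at a median of -0.62. Slc5a1, a sodium-glucose transporter, had 34 H3K4 reads against 65 H3K27 reads (2.84-fold to H3K27, 1.85 to 4.43), and Slc12a1, the transporter of the thick ascending limb, had 26 against 54. Epithelial genes had 7 of 20 H3K27-rich and 0 H3K4-rich, with Esrp1, an epithelial splicing regulator, at 35 against 79 and Cdh1 (E-cadherin) at 50 against 74 (2.20-fold to H3K27, 1.51 to 3.21). The ureteric bud and collecting duct list was mixed, with 5 H3K27-rich and 1 H3K4-rich of 16 measured genes. Its median was -0.46, and 5 of the 16 had a balance above 0. Ret, the receptor of the ureteric bud, had 53 against 109 (3.05-fold to H3K27, 2.18 to 4.32). Podocyte genes had 2 H3K4-rich and 2 H3K27-rich members of 14, at a median of -0.31, and only 5 of the 14 had a balance above 0. Foxc2 at 148 against 29 and Vegfa at 102 against 22 were the H3K4-rich ones. Endothelial genes had 3 of 14 H3K27-rich and 1 H3K4-rich.

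Mesenchymal and stromal genes were mixed. The mesenchymal list had a median of 0.00, with 3 H3K4-rich and 1 H3K27-rich of 19. Vim (vimentin) had 149 H3K4 reads against 28 H3K27 reads (3.59-fold, 2.38 to 5.58), and Cdh2 (N-cadherin) 71 against 21. The pair of Twist genes, bHLH factors of mesenchyme, fell apart: Twist2 had 65 against 8 (5.48-fold, 2.62 to 13.2), while Twist1 had 1 against 22 (32.6-fold to H3K27, 5.28 to 1347), with 10 in the input. Prrx1 was between at 67 against 88. Among stromal genes Foxd1, Tbx18 and Meis2 were H3K4-rich and Penk, Dcn and Pdgfra H3K27-rich, Pdgfra at 51 against 79.

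Housekeeping genes lay on the H3K4 side. Actb (beta-actin) had 214 H3K4 reads against 54 H3K27 reads (2.67-fold, 1.97 to 3.67), with 58 in the input. Of 20 measured housekeeping genes 6 were H3K4-rich and 0 H3K27-rich, and Gapdh had too few reads. The median of the housekeeping list, 0.65, was thus below that of the ribosomal and oxidative phosphorylation genes.

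Whether genes were high in both libraries at once depended on the background they were set against. Over the gene's own input, 146 genes (0.891%) were at least 2-fold up in both, but their median input was 2 reads, against 17 over all measured genes, and 102 of the 146 had 3 input reads or fewer. Only 2 of them passed the same rule in mK3. Over exon length, 209 genes (1.28%) passed, of which 87 lay on chromosome 3 and 39 on chromosome 15. Of all 16378 measured genes, 877 lay on chromosome 3 and 700 on chromosome 15. Exon length holds no input reads, so copy number does not cancel against this background. The part of copy number in these counts was not tested. Over the input of each gene with its 10 neighbours on each side, 44 genes (0.271%) passed, and 38 of these had an input of their own at least 2-fold above that of their neighbours. Hoxa11as was one, at 948 H3K4, 220 H3K27 and 325 input reads, and Sfi1 another, at 760, 649 and 427. Sfi1 stood at -0.05 and 0.29 over its own input on the log2 scale, so its reads were high in all 3 libraries alike.

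Tshb, which encodes a subunit of thyroid-stimulating hormone and lies on chromosome 3, was the 1 gene past both the input and the exon length background. Its counts were 22 in the H3K4 library, 37 in the H3K27 library and 3 in the input. The own-input and neighbour-input sets shared 0 genes, the length and neighbour sets 23, and no gene passed all 3. A set of genes high in both marks in mK4 was therefore not obtained from these counts in a form that kept its members when the background changed. Genes known to carry both marks in stem cells, such as the lineage factors above, had H3K4 reads near input: the median H3K4 level of that list over input was 0.05 and the median H3K27 level 1.18, on the log2 scale.

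The level of each mark over input differed at the 2 ends. H3K4-rich genes had a median of 0.57 over input in the H3K4 library and -0.75 in the H3K27 library. H3K27-rich genes had -0.34 and 0.94. The ends were chosen on the ratio of these same reads, so these opposite levels are a description. The input moved with the balance. Input reads per exon kilobase had a median of 8.43 in H3K4-rich genes and 4.83 in H3K27-rich genes, against 6.01 between. Across 5 equal groups of genes from low to high input density, the median balance was -0.44, -0.18, 0.05, 0.24 and 0.53. Base composition and mappability can enter all 3 libraries, and their part in the balance was not tested. Exon length moved the median less, to 0.16 in the shortest and 0.03 in the longest of 5 equal groups, but it moved the calls. From the shortest to the longest group 737, 472, 389, 269 and 139 genes were H3K4-rich, and 417, 462, 438, 405 and 361 H3K27-rich. Median lengths were 2094.5 bases in H3K4-rich and 2734 in H3K27-rich genes. Chromosome medians lay between -0.16 on X and 0.21 on chromosome 8.

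Promoter composition could be described for gene groups with a RefSeq window for at least 80% of members. The median number of CpG in the 250 bases was 16 for mitochondrial ribosomal, 15.5 for oxidative phosphorylation and 22 for splicing factor genes on the H3K4 side. On the H3K27 side it was 14 for neurogenic bHLH and for LIM homeobox genes, 13.5 for Nkx genes, 18 for the list with germline genes and 3.5 for segment transport genes. All 32851 RefSeq windows, not only those of measured genes, had a median of 6. Measured genes as a whole had windows for only 77.7%, so no value is given for them. The clone-named Rik genes, with a median balance of 0.01, had a median of 13 CpG, and 22.8% of their windows held the letters CGGAAG taken up next. The letters CGGAAG on either strand, the core bound by Ets factors, differed more. They were in 45.5% of the mitochondrial ribosomal, 34.8% of the oxidative phosphorylation and 48.7% of the splicing factor windows. None of the 15 neurogenic bHLH, 11 LIM homeobox, 8 Nkx or 16 segment transport windows held them, against 13.6% of all windows. These are few windows per group. Not every group followed this: the list with germline genes had 15.4%, and on the H3K4 side housekeeping genes had 6.25% and histone genes 0%. Groups with a median balance near 0 ran from 7.14% in Notch pathway to 31.1% in kinesin and dynein windows, with Zfp genes at 28.7%. The letters thus did not divide the groups by side. Of the printed promoters Ier5l holds these letters. The motif contains a CpG, so it is likelier in CpG-rich windows, and a match is not a binding site.

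Neighbouring genes had a weak tendency to share their balance. Over 16222 pairs of adjacent measured genes Pearson's r was 0.17, a description over genes that share local copy number and composition. Runs of at least 4 genes past 2-fold in a row numbered 11 on the H3K4 side and 21 on the H3K27 side. The longest H3K4-rich run had 8 genes on chromosome 19, from Map3k11 to Neat1, with Malat1 in it. On chromosome 5 a run of 5 H3K27-rich genes held the ParaHox genes, homeobox relatives of the Hox genes: Gsx1 at 14 H3K4 reads against 33 H3K27 reads, Pdx1 at 4 against 17 and Cdx2 at 21 against 65. A run of 5 on chromosome 1 went from Wnt10a to Ihh, a run of 5 keratin genes from Krt24 to Krt28, and a run of 4 held the cardiac myosin genes Myh6 and Myh7. The longest on this side had 7 genes, 5 of them named as olfactory receptors, on chromosome 15.

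A stretch of chromosome 15 from Nipbl to Cdh9 bears on the cancelling of copy number, because its 35 genes had a median of 747 reads in the 2 mK4 libraries, against 55 over all measured genes. Summed over the stretch, 17660 H3K4 reads stood against 13851 H3K27 reads, a ratio of shares of 0.859 (0.840 to 0.879), and in mK3 it was 0.879 (0.823 to 0.938). The pooled reads thus lay close to equal shares, a little to the H3K27 side. By gene the median balance was 0.13, a little to the H3K4 side, against 0.06 over all measured genes. Single genes ran from -1.69 to 1.31, a spread that the interval of the pooled ratio does not cover. With the stretch left out, 2003 genes were H3K4-rich and 2079 H3K27-rich. Of the 35 genes 3 were H3K4-rich and 4 H3K27-rich, beside 12.2% and 12.7% over all measured genes. The high counts give most of them narrow intervals, though Mir1898 had 12 reads against 8. Golph3, a Golgi protein, had 855 H3K4 reads against 230 H3K27 reads (2.51-fold, 2.16 to 2.91), Rad1, a checkpoint protein, 473 against 132 (2.42-fold, 1.99 to 2.95) and Tars, a tRNA synthetase, 533 against 169 (2.13-fold, 1.78 to 2.54). On the other side Rxfp3, a neuropeptide receptor, had 639 against 1394 (3.24-fold to H3K27, 2.95 to 3.56), Slc45a2, a pigment cell transporter, 365 against 753 (3.06-fold, 2.70 to 3.48) and C1qtnf3 361 against 562 (2.31-fold, 2.02 to 2.64). These 6 genes were picked for their values and have intervals far from equal shares. Others had nearly equal ones, such as Npr3 at 932 against 620 (1.01-fold, 0.914 to 1.12) and Sub1 at 463 against 284 (1.10-fold, 0.946 to 1.28).

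**Figure D4:**
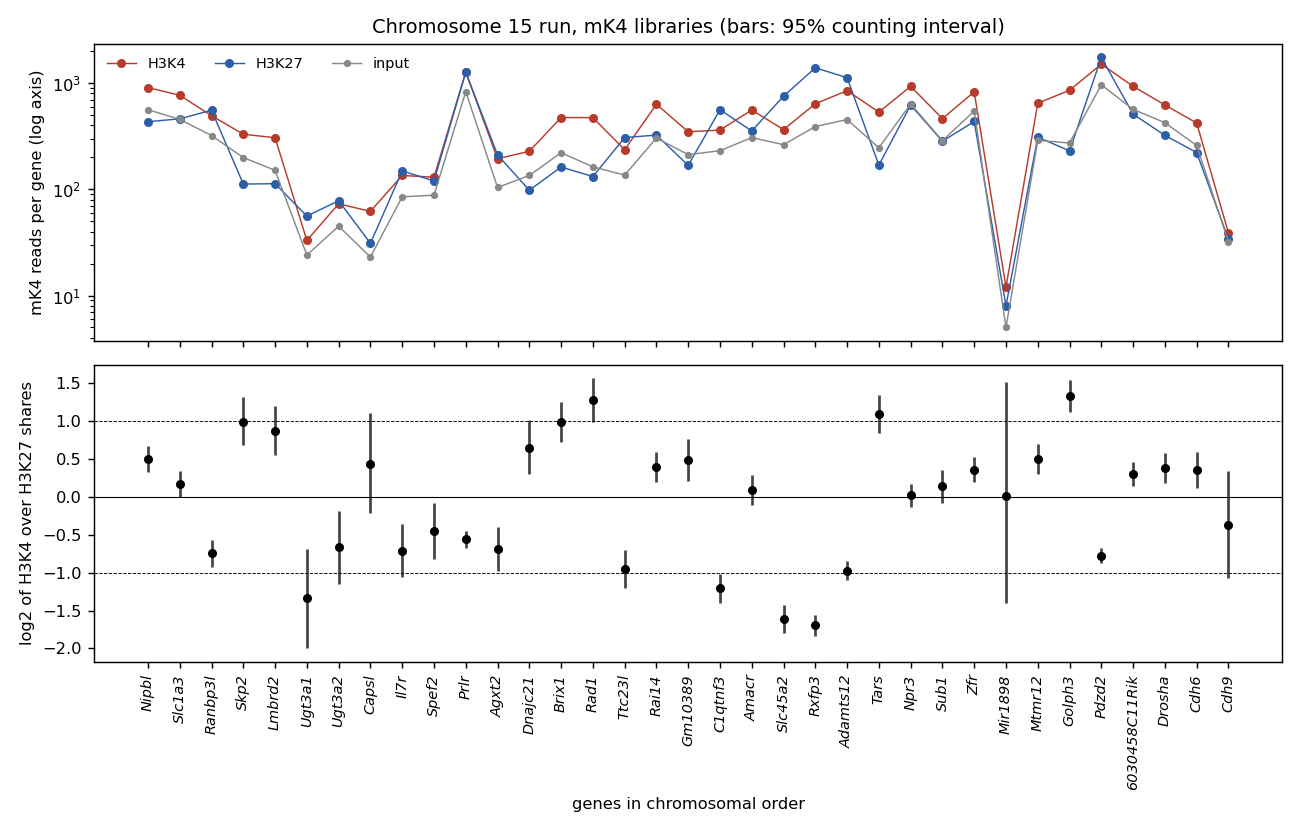
The 35 genes of the chromosome 15 stretch in mK4, in chromosomal order. The upper panel gives reads per gene on a logarithmic axis for H3K4, H3K27 and input, and the lower panel the log2 ratio of H3K4 over H3K27 read shares with 95% counting intervals; Golph3 at 855 against 230 reads and Rxfp3 at 639 against 1394 are the extremes.

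The same balance could be set side by side with mK3, whose libraries the mK4 values do not use. Among the 16378 genes, 1706 (10.4%) were H3K4-rich and 2281 (13.9%) H3K27-rich in mK3. Of the 2006 H3K4-rich genes of mK4, 894 (44.6%) were past 2-fold the same way in mK3 and 1855 had the same sign. Of the 2083 H3K27-rich genes, 969 (46.5%) were past 2-fold the same way and 1964 had the same sign. Across genes the 2 balances had Pearson's r of 0.71 and Spearman's rho of 0.71 (n = 16378). That is a description, since genes are not replicates and the lines share each gene's exon length, mappability and base composition.

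**Figure D5:**
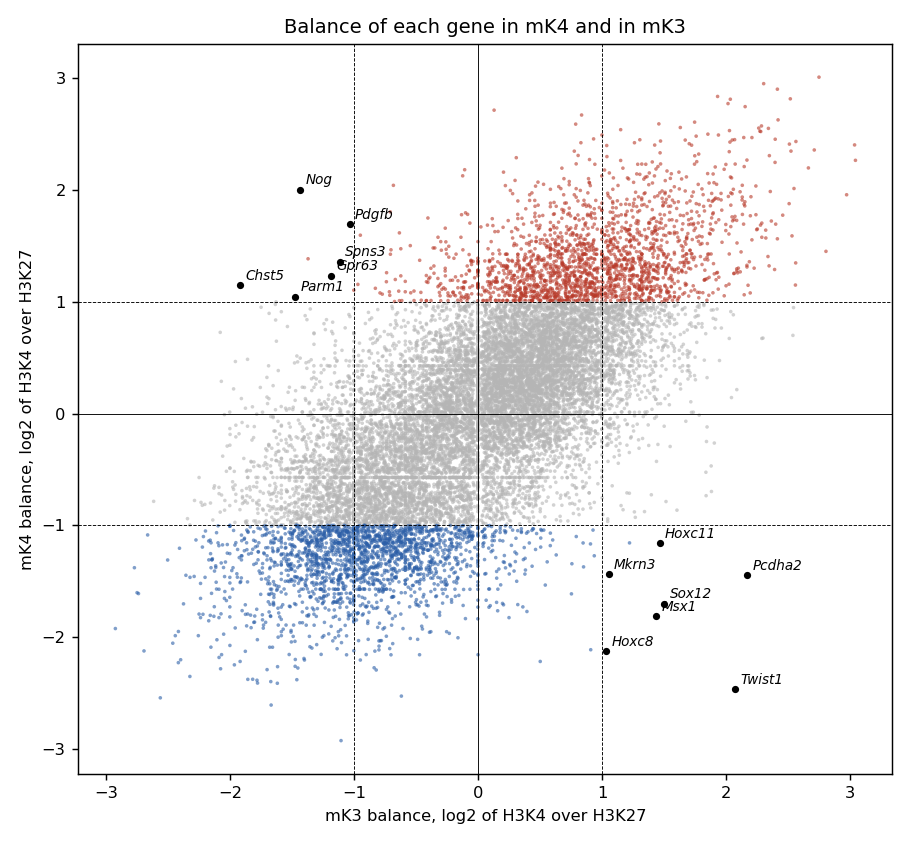
Balance of each of 16378 genes in mK4 (vertical) and mK3 (horizontal), as log2 of H3K4 over H3K27 scaled reads plus 5; red and blue points are H3K4-rich and H3K27-rich in mK4. Most coloured points keep their side in mK3, and the 13 labelled genes are past 2-fold in opposite directions.

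Past 2-fold in opposite directions were 16 genes, 8 each way, of which 13 are neither clone-named nor on a sex chromosome. Nog (noggin), a secreted BMP antagonist, had 149 H3K4 reads against 22 H3K27 reads in mK4 and 28 against 84 in mK3. Pdgfb, a growth factor for pericytes and mesangial cells, had 119 against 22 in mK4 and 39 against 85 in mK3. Both were H3K4-rich in mK4 and H3K27-rich in mK3. The other way round, Sox12 had 25 against 64 in mK4 and 114 against 37 in mK3, Msx1 had 5 against 22 in mK4 and 33 against 9 in mK3, and Twist1 had 1 against 22 in mK4 and 100 against 20 in mK3. Hoxc11, with 6 against 14 in mK4 and 53 against 16 in mK3, was among these, as was Hoxc8, whose mK3 H3K4 share was not above its input share. For Twist1 it was the H3K4 reads that parted the lines, since the H3K27 reads were 22 and 20. Whether these differences between the lines exceed the spread of replicate cultures was not tested, as each line has 1 library per mark.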

How the data were processed

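ChIP-seq and input libraries of the lines mK3 and mK4 were grouped by their titles, 1 library in each of 6 groups. Per the labels, a commercial service made them for Illumina sequencing, and reads were placed on mm9, per the submitters' processing notes. Per the file headers, the 22088 gene rows of each deposited table hold a read count, an RPKM and the exon length. The authors' RPKM was matched in every row by the count divided by exon length and by the table's own count sum (tolerance 1e-05), and was used for that check alone. Aligner, duplicate handling and strand: not given in the sources used here.

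Of 137 symbols with several rows, 151 rows were dropped, keeping the row with the highest mean. The deposited counts were scaled to the mean of the 2 sums and compared on log2 of the scaled count plus 5, which understates differences at low counts. Ratios of read shares carry no added constant. Genes were called rich at 2-fold. No test was made, since a group is 1 library. Named are, at each end, 25 genes with the most extreme near interval bound, without genes of the sex chromosomes, small RNAs or clone names, up to 4 members of each list with the largest ratios, and 14 kidney and control genes chosen by name. Other members of families and of the chromosome 15 stretch were named after their values were seen. Some of the genes these rules name are not reported here. All lists and rules were chosen with earlier results of these data known. RefSeq tables of GRCm38.p6 gave gene order and promoters. The calculations used Python 3.11.15 with pandas 2.3.3, numpy 2.4.6, scipy 1.17.1 and matplotlib 3.10.9, and edgeR 4.0.16 in R 4.3.3 for TMM factors only. The code was tested on simulated data.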

Additional observations from a re-analysis of the deposited data

Results flagged for a closer look

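These 13 genes stand out because they were past 2-fold in opposite directions in the 2 lines, each line with 1 library per mark, so the difference was not tested. Each value is the mK4 balance minus the mK3 balance on the log2 scale. Higher in mK4 were Nog (3.44), Chst5 (3.07), Pdgfb (2.73), Parm1 (2.52), Spns3 (2.48) and Gpr63 (2.42). Lower in mK4 were Twist1 (-4.53), Pcdha2 (-3.61), Msx1 (-3.25), Sox12 (-3.20), Hoxc8 (-3.16), Hoxc11 (-2.62) and Mkrn3 (-2.49). Twist1, with 1 H3K4 read in mK4, and Pcdha2, with 1 H3K27 read in mK3, rest on very few reads in 1 of the libraries, and the alpha protocadherin genes share exons. Low counts were not limited to that pair. Gpr63 had 4 H3K27 reads in mK4 and 6 H3K4 reads in mK3, and Mkrn3 had 5 H3K4 reads in mK4 and 8 H3K27 reads in mK3. The near bound of the mK4 counting interval ran from 1.23-fold for Chst5 to 5.28-fold for Twist1.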

How the results depend on the processing

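With at least 50 reads required, 1250 genes were H3K4-rich and 1134 H3K27-rich, since fewer genes were measured. Over the other settings (added constants of 1 and 10, no minimum, ratios centred on their median, TMM factors, sums without X and Y, every row kept, and no chromosome 15 stretch) the counts ran between 1399 and 2724 for H3K4-rich genes and between 1413 and 2771 for H3K27-rich genes. Centring on the median gave 1783 and 2332. Families and lists with a median at or above 0.5 numbered between 9 and 12, and those at or below -0.5 between 21 and 31. Genes high in both numbered 146 over input, 449 with an added constant of 1, 6 at 3-fold, 44 over the input of the gene with its neighbours and 1 over input and exon length together, and the cause was not tested. The share of rich genes past 2-fold the same way in mK3 stayed between 40.8% and 47.2% for H3K4-rich and between 37.7% and 52.9% for H3K27-rich genes. These mK3 settings and the removal of the stretch were chosen after seeing the data. Of 547 values of 82 named genes under these settings 2 slipped below 2-fold and 0 changed sign past it. This was largely fixed in advance. A change of the minimum leaves the value of a gene as it is. The genes of both ends were chosen for extreme intervals, and others of the 82 were never past 2-fold. Many family and list members named above were not among the 82. Of 527 medians of 77 families and lists under these settings, 83 moved by more than the counting error of the pooled reads of the set. Of these 83, 30 were with at least 50 reads required. The sign changed for 10 families and lists, and for 0 of those whose median lay at least 0.5 from 0. With at least 50 reads required the median became 1.10 for Hox genes, 0.35 for nephron progenitor genes and 0.65 for BMP and GDF ligands, against -0.31, -0.40 and -0.44 with 20. No paired analysis was possible because each group has 1 library. Depth limits single genes: a gene at the minimum of 20 reads has a wide interval. Intervals cover counting error only.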

Other observations

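Some further groups were not taken up above. Cell cycle inhibitors and their regulators lay on the H3K4 side in mK4, with a median balance of 0.83 over 9 measured genes, 3 of them H3K4-rich and 0 H3K27-rich. Cdkn1b (p27), which slows entry into S phase, had 165 H3K4 reads against 26 H3K27 reads (4.28-fold, 2.82 to 6.74), and Cdkn2a, a locus that Polycomb is known to silence in young cells, had 28 against 5 (3.77-fold, 1.44 to 12.5). Histone genes had 7 of 16 measured members H3K4-rich and 0 H3K27-rich at a median of 0.68. Only 16 of the 67 histone genes in the files had enough reads, and with no minimum the median was 0.22. The median level of the measured histone genes over input was -0.55 in the H3K4 library and -0.95 in the H3K27 library, so both marks lay under input there. Imprinted genes, of which 1 parental copy is silent, had 2 H3K4-rich and 8 H3K27-rich of 34. Nap1l5 had 39 against 6 and Zrsr1 90 against 22, while Dlk1 had 13 against 36 and Plagl1 33 against 66.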
